A study of Bos taurus with 35 samples.

Results

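CCL2 (ENSBTAG00000037811) and its receptor CCR2 (ENSBTAG00000013586) were followed across 4 tissues of Hanwoo cattle, the Korean beef breed. They are 2 of the 24596 genes counted in each of 34 RNA-seq libraries. They were chosen as a ligand and its receptor with earlier results of these data known, including their opposite changes in intramuscular fat. The libraries came from 9 animals of 30 months, sampled after slaughter, and comprised omental fat (O, n = 9), intramuscular fat (I, n = 8), subcutaneous fat (S, n = 9) and muscle (n = 8). S and I were taken at the ribs, and O was the fat lying along the lesser curvature of the abomasum. Animals 1, 4 and 7 were labelled female, 2, 5 and 8 castrated male, and 3, 6 and 9 male. Libraries with the same replicate number were labelled as the same animal, and no treatment was given in the labels. Animal 9 had no I library used here and animal 7 no muscle library.

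CCL2 is a secreted chemokine, a small protein that draws monocytes out of the blood towards the cells that release it. CCR2 is the G-protein-coupled receptor on monocytes and some other leukocytes that binds CCL2. In fat, CCL2 can be made by adipocytes, stromal, endothelial and myeloid cells, and the pair is known for monocyte recruitment into adipose tissue. Ligand and receptor are therefore often made by different cells, and in bulk tissue fewer cells of a type and less RNA per cell cannot be told apart.

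The primers that the study designed for its qRT-PCR show which transcripts it addressed under the names CCL2 and CCR2, so they are given here from 5′ to 3′. Each pair spans a product of 158 bp for CCL2 and 138 bp for CCR2.
CCL2 forward: ccctcctgtgcctgctactc
CCL2 reverse: cttgctgctggtgactcttctgt
CCR2 forward: aaggggaatgatgaagaaccca
CCR2 reverse: gcccacaaaaccaaagatgaaga

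In the RefSeq gene order of ARS-UCD2.0, the nearest protein-coding neighbours of CCL2 include the chemokine genes CCL8 and CCL11. These are related genes, reads that aligned to more than 1 place were not counted, and the strand setting of the counting was not given in the sources used here, so counts shared with a relative or an overlapping gene cannot be told apart from these values.

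Libraries held 3726376 to 7184022 counts on genes, with a median of 5428462. Levels are counts per 1000000 counts on genes (CPM) after TMM scaling over the 34 libraries, and 3 counts, the limit that a count of 0 allows, correspond to 0.418 to 0.805 CPM. Two-group values come from edgeR's quasi-likelihood fits, with an FDR under 0.01 as the threshold. The tissue labels were checked on named genes. FASN, the fatty acid synthase of fat cells, averaged 2782 CPM in O, 4706 in S, 668 in I and 73.3 in muscle (76.8 without muscle replicate 4, whose label is questioned next). TPM2, a muscle tropomyosin, averaged 33381 CPM in muscle (33579 without replicate 4), 1472 in I, 162 in O and 152 in S. The TPM2 level of I above that of O and S came to 2.46% to 6.09% of the muscle level of the same animal (median 4.1%, n = 7). The library labelled muscle replicate 4 went against its label. At 5 identifiers with 0 to 2 counts in the 9 female fat libraries and 697 to 1014 in the 17 other fat libraries, it held 599 counts, against 1 in the other female muscle library and 425 to 901 in the 6 other muscle libraries. Main fits between tissues, mean levels and likenesses that use muscle are therefore given with and without it. The comparisons within animals, the TPM2 share and the fits with the animal as a block keep it, although its pairing with animal 4 is in doubt.

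CCL2 transcript was far higher in I than in any other tissue. In I its level was 864, 789, 838, 665, 589, 480, 257 and 329 CPM in animals 1 to 8, resting on 1711 to 5175 counts a library. The lowest I library, that of animal 7, was above the highest library of every other tissue. The share of all genes whose I libraries separate this fully was not counted, so the separation is a description of CCL2 only. Levels in O ran from 18.8 through a median of 42.5 to 124 CPM, with the highest value in animal 2. In S it ran from 17.2 through a median of 47.8 to 138 CPM, with the highest value in animal 6. In muscle it ran from 10.4 through a median of 22.9 to 44.9 CPM, with the highest value in animal 5. The means were 601 ± 231 CPM in I (SD, n = 8), 67.4 ± 47.3 in S (SD, n = 9), 48.6 ± 32.3 in O (SD, n = 9) and 24.8 ± 10.005 in muscle (SD, n = 8; 25.3 ± 10.7 without replicate 4). In this order, I stands clear of S, while S and O overlap almost entirely. Relative spread between animals was wider in S (coefficient of variation 70.2%) and O (66.5%) than in I (38.3%), without a test of that difference.

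CCR2 transcript was scarce everywhere and lay at the detection limit in most I and muscle libraries. In O the counts of animals 1 to 9 were 9, 30, 37, 15, 18, 16, 9, 40 and 26. In S they were 18, 16, 24, 9, 22, 7, 10, 20 and 29. Every O and S library thus held more than 3 counts of the receptor. In I, animals 1 to 8 gave 1, 2, 1, 0, 0, 10, 6 and 2 counts. In muscle, animals 1, 2, 3, 4, 5, 6, 8 and 9 gave 1, 5, 1, 1, 0, 1, 0 and 2 counts. Hence 6 of the 8 I libraries held 2 counts or fewer, and animals 6 and 7 supplied most of the receptor counts in this depot. On the CPM scale the means were 3.39 ± 1.54 in O (SD, n = 9), 2.66 ± 1.29 in S (SD, n = 9), 0.472 ± 0.623 in I (SD, n = 8) and 0.421 ± 0.448 in muscle (SD, n = 8; 0.431 ± 0.483 without replicate 4). Pooled over libraries and without TMM, CCR2 made up 4.19 CPM of the reads counted in O, with an exact Poisson 95% interval of 3.63 to 4.82. The value was 3.03 in S (interval 2.57 to 3.55), 0.489 in I (interval 0.306 to 0.74) and 0.27 in muscle (interval 0.135 to 0.482). Without muscle replicate 4 the muscle value was 0.276 (interval 0.133 to 0.508). These intervals cover counting error only. On that error alone the O and S intervals do not overlap, while those of I and muscle do. Library by library, O and S overlap, and so do I and muscle.

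**Figure D1:**
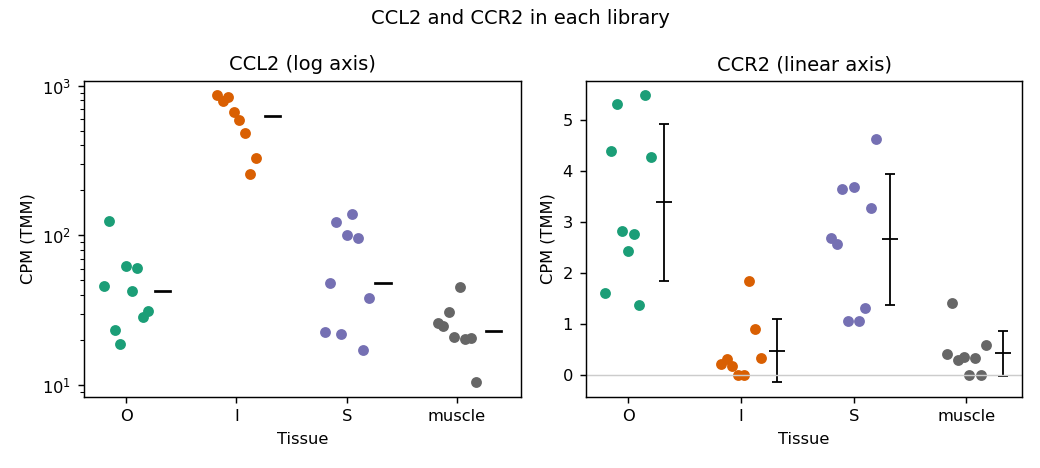
Level of CCL2 (left, log axis) and CCR2 (right, linear axis) in CPM in each library of omental fat (O), intramuscular fat (I), subcutaneous fat (S) and muscle, with 1 point per library. Bars beside the points show the median for CCL2 and the mean with the SD for CCR2; I stands above all other tissues for CCL2, with 256.6 CPM as its lowest library, and near 0 for CCR2.

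The first question of the design was how I differs from the other depots. For CCL2 and CCR2 these contrasts are a description without a test, because the study picked both genes for qRT-PCR from its DEGs of I in these same libraries. CCL2 was higher in I than in O in 8 of 8 animals, by 4.26-fold in animal 7 to 36.2-fold in animal 3 (median 11.4-fold). Against S it was again higher in 8 of 8 animals, from 2.67-fold in animal 7 to 38.0-fold in animal 1 (median 11.6-fold). The fitted log2 fold changes of CCL2 were 3.65 (SE 0.36) for I against O and 3.19 (SE 0.43) for I against S. Among all genes tested, 148 of 13156 had a larger log2 fold change in I against O and 218 of 13077 in I against S.

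CCR2 moved the other way. Its level was lower in I than in O in 8 of 8 animals, and 7 of the 8 I libraries lay below every O library. Against S it was lower in 7 of 8 animals, and again 7 of the 8 I libraries lay below every S library. The share of all genes with such a separation was not counted, here or in the comparisons with muscle. The exception was animal 6, with 1.85 CPM in I and 1.06 CPM in S, or 10 counts against 7. The fitted log2 fold change of CCR2 was -2.81 (SE 0.52) for I against O, where the gene passed the count filter through its O libraries. For I against S, where it did not pass, the fit without the filter gave -2.44 (SE 0.56). Animal 6 weighed on both values: without it they were -3.52 and -3.27. Background call rates in these contrasts were 32.8% of genes for I against O and 32.7% for I against S, and nothing is read from them for genes chosen from the same contrasts.

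**Figure D2:**
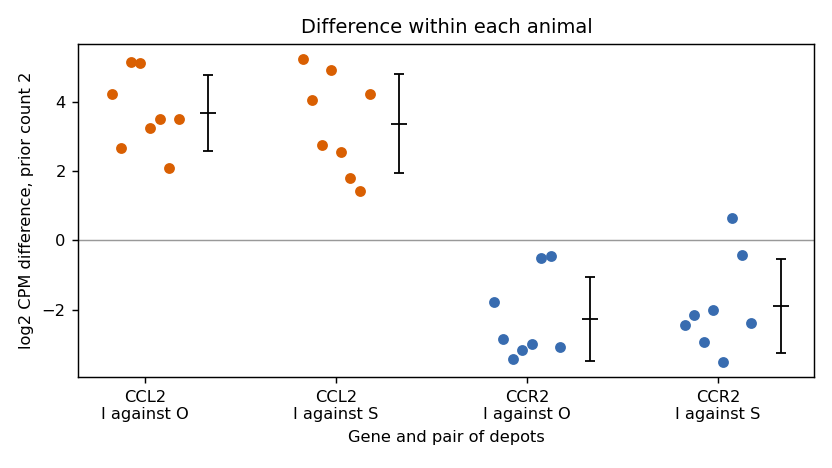
Difference between depots within each animal in log2 CPM (prior count 2), with 1 point per animal (8 in each column) and the mean with the SD beside the points. CCL2 lies above 0 in all 8 animals in both columns, and CCR2 lies below 0 except in animal 6 for I against S.

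Both mean directions were also seen when counts were divided by those of ACTB or GAPDH. These are a cytoskeletal and a glycolytic gene that served as references in the study's qRT-PCR. The references were themselves higher in I. Against O the log2 fold change was 0.511 for ACTB and 0.724 for GAPDH, and against S it was 0.605 and 0.473. Dividing by them lowers the I values of both CCL2 and CCR2. A small constant was added to the CCL2 and CCR2 counts so that counts of 0 could be used. Per count of ACTB, the mean log2 difference of CCL2 was 3.19 ± 1.12 (SD, n = 8) for I against O and 2.82 ± 1.29 for I against S. For CCR2 the corresponding values were -3.69 ± 2.23 and -3.30 ± 2.46. Per count of GAPDH, CCL2 gave 2.95 ± 1.21 and 2.94 ± 1.43 in the 2 contrasts. CCR2 gave -3.93 ± 2.07 and -3.18 ± 2.24. With either reference, CCR2 in I against S lay above 0 in 1 of 8 animals.

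The number of CCL2 counts per CCR2 count puts both changes in one value. It is not a comparison of level between the genes, since transcript length was not taken into account, but its change between tissues does not depend on length. Summed over libraries it was 14.4 in O, 26.1 in S, 57.0 in muscle (56.7 without replicate 4) and 1296.5 in I. In single O libraries it ran from 4.4 in animal 3 to 44.1 in animal 7, and in single S libraries from 5.2 in animal 8 to 131.1 in animal 6. Of the 6 I libraries with any receptor count, the lowest ratio was 260.2 in animal 6 and the highest 4796 in animal 3, so none reached down to the O or S range. In muscle the 6 libraries with a receptor count gave 17.4 to 108. The ratio in I thus differed through both genes, whereas muscle shared the low receptor count of I at a low ligand level.

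**Figure D3:**
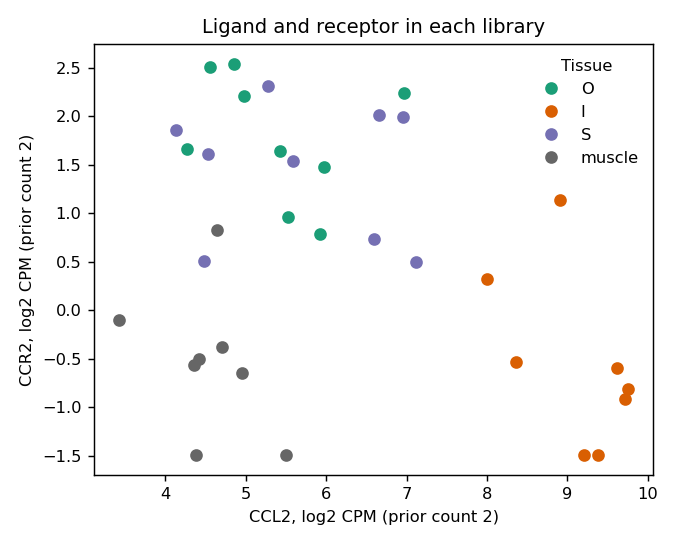
CCR2 against CCL2 in log2 CPM (prior count 2), with 1 point per library coloured by tissue. I libraries lie at the lower right (high ligand, low receptor), muscle at the lower left, and O and S intermingle above.

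Comparison of I with muscle asks whether the ligand level of I follows the tissue that surrounds it. CCL2 was higher in I than in muscle in 7 of 7 animals, from 13.1-fold in animal 5 to 33.5-fold in animal 1. The log2 fold change was 4.59 (SE 0.32), and 4.71 (SE 0.35) without muscle replicate 4. The I libraries are those from which the study picked CCL2 as high, so this too is a description without a test, and nothing is read from the 59.8% of genes called in the contrast. For CCR2 both tissues lay near the 3-count limit, with 22 counts in 8 I libraries and 11 in 8 muscle libraries, so no fold is given. CCR2 did not pass the count filter there. Without muscle replicate 4 the muscle counts were 10 in 7 libraries. The fit without the filter, which called 44.2% of genes, is not used for a test here. The pooled intervals of I and muscle overlap, but they cover counting error only and use no TMM scaling. They do not decide whether the receptor differs between these tissues.

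The other depots were set against muscle in the same way, so these comparisons share the muscle libraries. For CCR2 they are descriptions without a test, because the O and S libraries are those in which the gene was picked as higher than in I. CCR2 was higher in O than in muscle in 8 of 8 animals. All but 1 of the 9 O libraries lay above the highest muscle library, that of animal 2 with 1.42 CPM. The log2 fold change was 2.95 (SE 0.48), and 2.91 (SE 0.52) without muscle replicate 4. Here CCR2 passed the count filter through its O libraries. CCR2 was also higher in S than in muscle in 8 of 8 animals, and 6 of the 9 S libraries lay above all muscle libraries. It did not pass the filter in S against muscle. The unfiltered fit gave a log2 fold change of 2.57 (SE 0.51), and 2.54 (SE 0.55) without muscle replicate 4. Call rates over all genes were 63.4% in O against muscle and 47.5% in the unfiltered fit of S against muscle, and nothing is read from them for CCR2.

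The CCL2 difference between these depots and muscle was close to the threshold. The choice of CCL2 did use these O and S libraries, but as low rather than high ones. The test is given with that limit, and its adjusted p-values are not free of the choice. In O against muscle the ligand was higher in 6 of 8 animals, with 4 of the 9 O libraries above every muscle library. The log2 fold change was 1.03 (SE 0.33, adjusted p = 0.00862 by edgeR). With the animal as a block the value was 0.80 (adjusted p = 0.0135 by edgeR) and no longer passed. Without muscle replicate 4 it was 0.99 (adjusted p = 0.017 by edgeR), and did not pass either. The call was likewise lost when animal 1, 2, 6, 7, 8 or 9 was left out, at log2 fold changes of 0.71 to 1.06 (adjusted p = 0.0119 to 0.0358 by edgeR). In S against muscle, CCL2 was higher in 6 of 8 animals. Its log2 fold change was 1.49 (SE 0.41, adjusted p = 0.00289 by edgeR), with 62.7% of all genes called with the filter. With the animal as a block it was 1.09 (adjusted p = 0.0111 by edgeR), and without animal 6 it was 1.26 (adjusted p = 0.0129 by edgeR). Both miss the threshold. Without muscle replicate 4 it was 1.46 (adjusted p = 0.00562 by edgeR). Without TMM scaling the median log2 fold change of all genes lay at 0.97 in O against muscle, and that of CCL2 at 1.91.

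O and S did not differ detectably in either gene. CCL2 was higher in O in 3 of 9 animals, by up to 2.6-fold in animal 2, and higher in S in the other 6, with 23.2 CPM in O against 123 CPM in S in animal 3. The log2 fold change was -0.48 (SE 0.42, adjusted p = 0.594 by edgeR). CCR2 was higher in O in 6 of 9 animals. Its log2 fold change was 0.37 (SE 0.33, adjusted p = 0.598 by edgeR). The test called 3.32% of all genes between these depots, and neither member was among them.

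**Figure D4:**
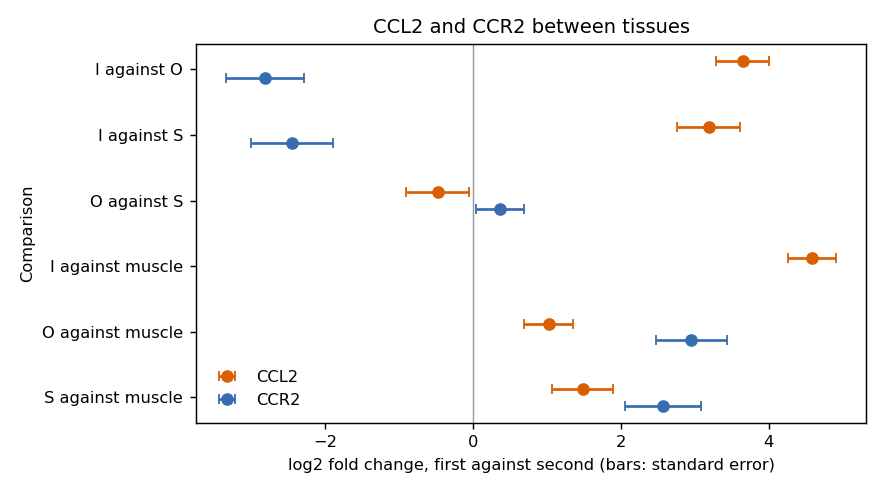
log2 fold change of CCL2 and CCR2 in each pair of tissues, the first tissue against the second, with the standard error as bars. CCR2 in I against muscle is left out because both tissues lie near the 3-count limit; CCR2 in I against S and in S against muscle comes from the fit without the count filter. The genes point in opposite directions in I against O (3.65 and -2.81) and I against S.

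Receptor counts were set beside those of other genes of myeloid cells, which carry CCR2. Gene names were available for 31 identifiers, through the study's primer table, so of 267 symbols in the lists of ligands, receptors, signalling genes and cell markers only 6 could be found, CCL2 and CCR2 among them. No count over a pathway could therefore be made. Of 22 monocyte and macrophage markers, 2 were measured: CD163, the haemoglobin scavenger receptor of macrophages, and ITGAM, an integrin chain of myeloid cells. Both belong to the genes that the study chose from these libraries, so they too are described without a test. CD163 averaged 622 CPM in O, 566 in S, 111 in I and 16.2 in muscle (17.4 without replicate 4). ITGAM averaged 122 CPM in O, 53.3 in S, 12.4 in I and 1.57 in muscle (1.64 without replicate 4). Like CCR2, both were lower in I than in O and S, and both were lower in 8 of 8 animals. The log2 fold changes of CD163 were -2.46 (SE 0.25) in I against O and -2.31 (SE 0.31) in I against S. Those of ITGAM were -3.28 (SE 0.34) and -2.07 (SE 0.26). In O against S the genes parted: the log2 fold change was 0.13 (SE 0.26) for CD163 and 1.19 (SE 0.29) for ITGAM, which was higher in O in 8 of 9 animals. MMP9, a gelatinase of neutrophils and macrophages, was on none of the lists and is added after its values were seen because it did not share the pattern. It was lower in I than in O in 8 of 8 animals (log2 fold change -3.76, SE 0.72). Against S it was lower in 5 and higher in 3 of 8 (-0.64, SE 0.73), and in O against S its value was 3.13 (SE 0.69). The fat-cell gene FASN was lower in I as well, at -2.03 against O and -2.78 against S on the log2 scale. The part of cell composition in the CCR2 values was not tested.

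**Figure D5:**
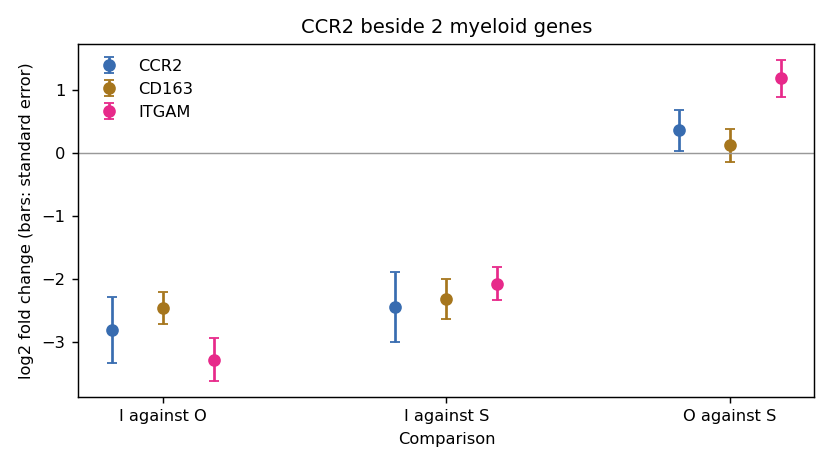
log2 fold change with standard error of CCR2, CD163 and ITGAM in 3 pairs of fat depots. All 3 genes lie between -2 and -3.5 in both comparisons with I; in O against S CCR2 and CD163 lie within 0.4 of 0 while ITGAM lies at 1.19. The CCR2 value in I against S comes from the fit without the count filter.

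Sex class was compared within each tissue, with 2 or 3 animals in a class. CCL2 in O averaged 41.6 CPM in females, 71.8 in castrated males and 32.2 in males (adjusted p = 0.999 by edgeR). The S averages were 47.0, 55.1 and 100.009 CPM (adjusted p = 0.685 by edgeR). The I averages were 595, 569 and 659 CPM (adjusted p = 0.994 by edgeR). In muscle it averaged 23.4, 30.0 and 20.4 CPM (adjusted p = 0.803 by edgeR). The female mean in muscle includes replicate 4, whose label is in doubt. Without it the female class held only muscle replicate 1, at 25.8 CPM, so no test is given. CCR2 in O averaged 1.93 CPM in females, 4.10 in castrated males and 4.12 in males (adjusted p = 0.999 by edgeR). In S it averaged 1.69, 3.17 and 3.11 CPM (adjusted p = 0.645 by edgeR). The female means were the lowest in both depots, but the classes overlapped and no difference passed the test. CCR2 did not pass the count filter within I or muscle and was not tested there. Few genes were called by sex class at all: 0.0372% in O, 0.0146% in I, 0.0377% in S and 0.00828% in muscle.

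Whether animals with more ligand also had more receptor was examined within each tissue. Each gene was also compared with itself between depots of the same animals, which gave 10 relations of log2 CPM in all. None passed an adjusted p under 0.05 in an exact two-sided permutation test. Pearson's r between CCL2 and CCR2 was -0.27 in O (exact p = 0.486, adjusted 0.809), -0.51 in I (exact p = 0.186, adjusted 0.635), -0.13 in S (exact p = 0.748, adjusted 0.934) and -0.36 in muscle (exact p = 0.369, adjusted 0.809). Spearman's rho was -0.45 (exact p = 0.23), -0.54 (exact p = 0.176), -0.08 (exact p = 0.843) and -0.32 (exact p = 0.432) in the same order, with adjusted values of 0.728 or more. Without the 2 animals farthest from the median of CCL2, r was -0.88 in O (exact p = 0.0141, not adjusted), -0.51 in I (exact p = 0.303), 0.28 in S (exact p = 0.518) and 0.30 in muscle (exact p = 0.622). In S and muscle the sign thus rested on those animals. Within muscle without replicate 4, r was -0.36.

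An animal's level in one depot did not detectably follow its level in another. For CCL2, r was 0.27 between O and S (exact p = 0.485, rho 0.30 with exact p = 0.437), -0.01 between O and I (exact p = 0.974, rho -0.07 with exact p = 0.882) and -0.07 between I and S (exact p = 0.851, rho 0.00 with exact p = 1.0). For CCR2, r was 0.50 between O and S (exact p = 0.169, rho 0.30 with exact p = 0.437), -0.19 between O and I (exact p = 0.664, rho -0.10 with exact p = 0.825) and -0.51 between I and S (exact p = 0.19, rho -0.50 with exact p = 0.209). Adjusted values of these 6 were 0.635 or more. Without the 2 farthest animals r was 0.25, -0.28 and -0.47 for CCL2 and 0.32, 0.02 and 0.39 for CCR2 in the same order, so the negative signs of CCR2 rested on those animals. Without animal 4, CCR2 in I and S gave r = -0.94, with an exact p that passed after adjustment (0.0238), on receptor counts of 0 to 10 in I.

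The genes most like each member were sought over the 34 libraries by Pearson's r of log2 CPM among 13946 genes with a mean of at least 1 CPM. The highest for CCL2 were ENSBTAG00000014921 (r = 0.911) and ENSBTAG00000037558 (r = 0.908), identifiers that the sources used here did not pair with a name. Both were high in I like CCL2: ENSBTAG00000014921 averaged 247 CPM in I against 1.27 in O, 4.42 in S and 2.25 in muscle. The highest for CCR2 were ENSBTAG00000025400 (r = 0.884) and ENSBTAG00000008099 (r = 0.86). ENSBTAG00000025400 averaged 61.5 CPM in O, 55.7 in S, 34.0 in I and 27.9 in muscle, the same order of tissue means as CCR2. Between I and muscle the order of CCR2 is not settled, since its medians ran the other way (0.259 CPM in I and 0.336 in muscle). Of the listed genes, ITGAM had r = 0.744 with CCR2, at place 156, the fat-cell genes FASN and DGAT2 0.715 and 0.677, and CD163 0.705. FASN thus lay between the myeloid genes ITGAM and CD163. After the mean of each tissue was taken out, the highest r was 0.697 for CCL2 and 0.737 for CCR2, and r with CCR2 was 0.12 for ITGAM, -0.03 for CD163, 0.14 for FASN and -0.02 for DGAT2. CCL2 and CCR2 themselves had r = -0.36 over the 34 libraries and -0.27 after the tissue means were taken out. Without muscle replicate 4 the r of CCL2 with CCR2 was -0.39 and -0.27, and those of the 4 identifiers named were 0.910, 0.908, 0.881 and 0.865. ITGAM, FASN, CD163 and DGAT2 then gave 0.740, 0.711, 0.702 and 0.674 with CCR2. The points share library and animal, and these r values carry no test.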

How the data were processed

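Raw count tables of 34 libraries were used. The authors aligned paired-end TruSeq reads to bosTau6 with TopHat2 2.0.2 and deposited whole-number counts per Ensembl gene from HTSeq 0.5.3p3. Lines that name no gene were left out; counts on genes were 28.9% to 36.7% of all counted lines, and reads outside gene features 54.5% to 62.8%. Contrasts with libraries from which the study had picked a gene as high are descriptions, although a test of those with muscle was planned. Depth and its floor are given above. Groups and animals came from the sample labels. P-values measure the spread between animals, and the main fits have no term for the animal. They thus treat libraries of the same animal as independent. CCL2, CCR2 and the gene lists were chosen with earlier results of these data known. Named genes were CCL2 and CCR2, the 4 most abundant measured members of each list, and the 5 genes most like each of them.

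Each pair of tissues was fitted with edgeR 4.0.16 in R 4.3.3 (filterByExpr with a count minimum of 10, TMM, quasi-likelihood test, Benjamini-Hochberg adjustment over all genes tested). Sex class was tested in the same way with a 2-degree-of-freedom contrast. log2 CPM used a prior count of 2. Correlations were tested by exact permutation with numpy 2.4.6, and the Poisson intervals were computed with scipy 1.17.1. The fit was run on simulated data for I against O, with independent libraries and the same dispersion for every gene. Only genes with a mean of at least 10 counts were changed. Of these, 62 of 100 changed 2-fold and 100 of 100 changed 4-fold were recovered, with 1 false call among 13369 genes. The spread of CCL2 and CCR2 between animals was not modelled, so this recovery does not give the power for either gene. Alternatives were the likelihood ratio test, DESeq2 1.42.0, RLE factors, no TMM, a blocking term for the animal, a covariate for sex class, no filter on counts, a minimum above 1 CPM, muscle without replicate 4 and each animal left out in turn. Scaling to ACTB or GAPDH, and fits of CCR2 without the filter, were added after seeing the data.

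Same-numbered libraries were labelled as the same animal. This pairing was used for the differences within animals, the correlations between depots and the replicate block, but not in the main fits. Deviations of same-numbered libraries from the tissue means had a median correlation of 0.413 in O and S. It was 0.103 in I and O, and 0.207 in I and S. With muscle it was 0.258 for I, 0.137 for O and 0.028 for S. Between libraries of different animals the median was 0.028 in S and muscle as well, and -0.034 to 0.002 in the other pairs. The pairing of S with muscle thus did not show in these correlations. In I and S the same-animal values ran from -0.296 to 0.462. No pair of libraries of a tissue differed by as little as sampling noise (lowest chi-square per degree of freedom 12.8 over 128 pairs). The labels and the paper's methods differ on the RNA extraction kit and on the sex of the animals, and the labels were followed.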

Additional observations from a re-analysis of the deposited data

How the results depend on the processing

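Of 498 values recomputed under the alternatives, 470 held. Of 319 from fits, sex-class tests and correlations, 297 kept their direction and their side of the threshold. These 319 include I against muscle, and CCR2 in O and S against muscle, which are described above without a test. The sex-class and correlation values lay far from the threshold in the main setting, so their staying on the same side carries little weight. Some r values could not change, because correlations that use no value of animal 9, or in muscle of animal 7, were recomputed without that animal. The correlation within muscle without replicate 4 was counted both as a muscle setting and as an animal left out. Of 74 untested values in I against O and S, 73 moved by less than the spread. Of 105 numbers of genes called, 100 stayed within 1.5 times. With the animal as a replicate block, CCL2 gave 0.80 in O against muscle and 1.09 in S against muscle on the log2 scale, both no longer past the threshold, and the fitted CCR2 value in I against muscle was -0.23, opposite to 0.06 without the block, on 22 and 11 counts. The replicate block changed no other call of CCL2 or CCR2. CCL2 in O against muscle was also lost with RLE factors (0.997) and without muscle replicate 4 (0.99). With each animal left out in turn, log2 fold changes ran from 0.71 to 1.16 for CCL2 in O against muscle, from 1.26 to 1.61 for CCL2 in S against muscle and from -0.67 to 0.73 for CCR2 in I against muscle, where leaving out animal 6 (-0.67) or 7 (-0.15) turned the sign. The cause of these changes was not tested. Leaving out an animal moved r within -0.41 to 0.14 for CCL2 with CCR2 in S, -0.35 to 0.20 for CCL2 in O with I, -0.43 to 0.17 for CCL2 in I with S, -0.28 to 0.05 for CCR2 in O with I and -0.94 to -0.21 for CCR2 in I with S. Animals 6 (CCL2 with CCR2 in S), 3, 4 and 7 (CCL2 in O with I), 1 and 7 (CCL2 in I with S) and 7 (CCR2 in O with I, at 0.053) turned the sign. Per count of GAPDH, CCR2 in I against O was -3.93.

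The number of genes called between O and S was 430, against 743 with the likelihood ratio test, 814 with DESeq2, 1067 with the replicate block and 271 without animal 5 or 9. Without TMM scaling, the median log2 fold change of all genes moved to 0.79 in I against muscle, 0.97 in O against muscle, 0.94 in S against muscle, -0.22 in I against O and -0.20 in I against S. CCR2 counts of 0 to 10 in I and muscle limit every value of the receptor there. Differences of CCR2 by sex class in I and muscle were not tested.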
